A study of Sus scrofa with 10 samples.

Results

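Sterol and fatty acid synthesis was followed through 38 listed genes, of which 34 carried a named probe set among the 13755 named genes of the array. They were taken by gene symbol, with 1 probe set per gene, the one with the highest mean over the 10 arrays. The 34 genes were 15 enzymes of cholesterol synthesis, 7 regulators and sterol-handling proteins, and 12 enzymes of fatty acid synthesis and remodelling. The other 4 (IDI1, TM7SF2, SC5DL and FADS1) were not analysed here.

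Expression was read from 10 arrays of the Affymetrix Snowball design, made for the pig, in alveolar macrophages, the phagocytes that live in the airspaces of the lung. Each of 5 Hampshire pigs gave 1 array of cells still floating after a night of culture (non-adherent, n = 5) and 1 of cells fixed to the plastic (adherent, n = 5). All cells had been frozen, thawed and cultured in serum-containing medium with recombinant human CSF-1, and the labels call every sample untreated at 0 h. No source used here gives the age of the pigs. Non-adherent cells were also sorted by cytometry for large size and high granularity, a step the protocol of the adherent cells does not name. That protocol instead mentions lipopolysaccharide, although the samples carry the label untreated. The adherent arrays belong to an earlier series, so attachment, the sort and the array series cannot be told apart.

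Cells make cholesterol from acetyl-CoA through mevalonate, squalene and lanosterol, and make fatty acids from the same precursor through malonyl-CoA. The transcription factors SREBP-1 and SREBP-2 switch on both routes when sterols in the endoplasmic reticulum run low, and the INSIG proteins hold them back when sterols are plentiful. Alveolar macrophages live among surfactant lipids, which they take up and break down, and oxysterols formed from excess cholesterol activate the LXR receptors, which switch on export.

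The synthesis genes were on balance lower in non-adherent cells. Of the 34 genes, 11 fell and 2 rose, where 9.78% of all named genes fell and 6.72% rose. These calls came from limma without pairing by pig, at an adjusted p of at most 0.05 over all named genes. The genes that fell included INSIG1, both SREBP genes, the fatty acid enzymes FASN, ACACA and SCD, and 5 cholesterol enzymes, and those that rose were NCEH1 and ELOVL5. Without both arrays of animal 2, 5 genes fell and 1 rose, beside 7.28% and 4.85% of all named genes. Without its non-adherent array alone, 7 fell and 1 rose, beside 7.74% and 5.04%. The same counts of 7 and 1 came without both arrays of animal 3, beside 5.32% and 2.81%, and without those of animal 5, beside 5.98% and 3.11%. With all arrays and the animal as a block, HMGCS1 and PMVK no longer passed and STARD4 did. The median log2 difference, non-adherent minus adherent, was -0.40 over the 34 genes and 0.01 over all named genes. In 7 of the 34 genes every non-adherent array lay below every adherent array, as in 8.63% of all named genes, and in 2 genes every non-adherent array lay above, as in 6.35%. Compared within each pig, 14 of the 34 genes were lower in 5 of 5 animals, as were 16.5% of all named genes, and 4 were higher in 5 of 5, as were 15.3%. In bulk RNA of this kind, fewer cells of a type and less RNA per cell cannot be told apart.

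**Figure D1:**
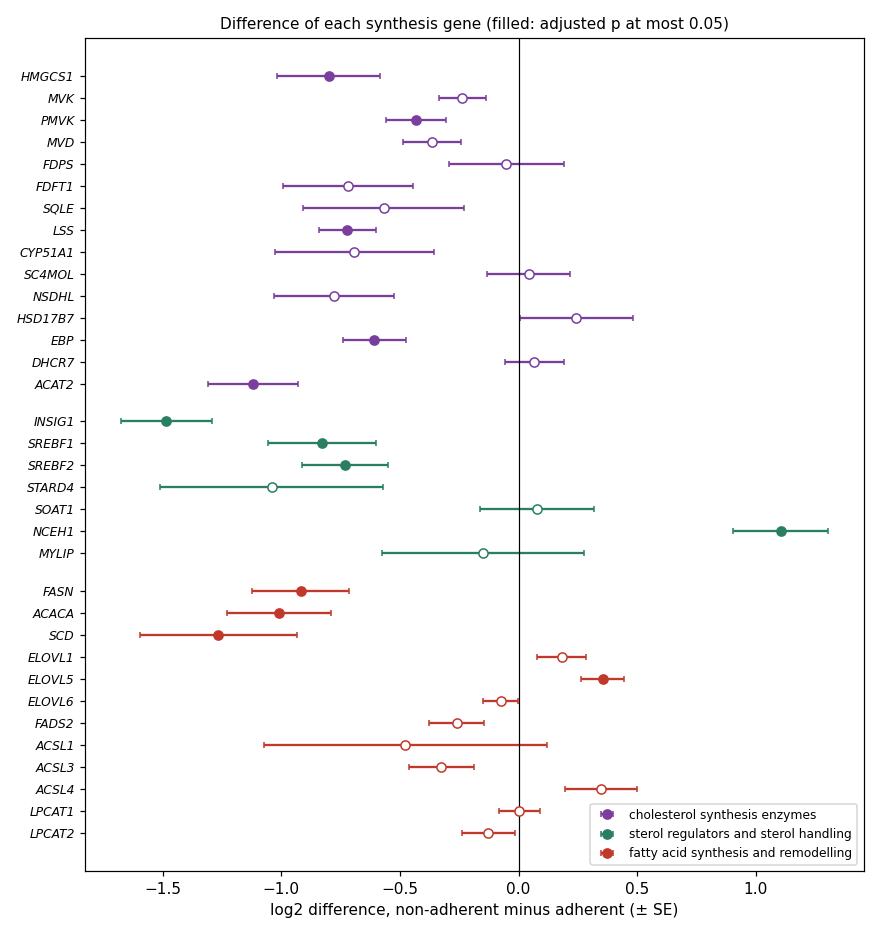
Log2 difference (non-adherent minus adherent, x axis) of each of the 34 synthesis genes (y axis), with bars of 1 SE from the limma fit and colours for the 3 roles. Filled points passed an adjusted p of 0.05: 11 lie left of 0 and 2, NCEH1 and ELOVL5, lie right of it.

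Some array-wide measurements moved with the groups. Control probe sets with 20 or more G or C bases, which have no pig target and read background, had a mean log2 value of 7.15 ± 0.08 on non-adherent and 7.79 ± 0.16 on adherent arrays (SD, n = 5 each; exact permutation p = 0.00794). That is a difference of -0.64, beside a median of -0.40 for the synthesis genes and 0.01 for all named genes. The median of all probe sets lay between 4.97 and 5.09 on every array. The base composition of the probes was not used here. The BioB spike-in controls differed in the other direction, at 8.98 on non-adherent and 5.78 on adherent arrays, a difference of 3.20. With the background as a covariate, 0 of 34 genes passed in limma and 2 had an unadjusted p under 0.05, while 4 of 13755 named genes passed (0.0291%) and 9.59% had an unadjusted p under 0.05. The background ranges of the groups do not overlap (7.06 to 7.24 and 7.60 to 7.99), so background and group cannot be told apart.

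Macrophage markers varied in level. CD163 read 10.86 ± 0.22 on non-adherent and 9.35 ± 1.12 on adherent arrays (log2, SD, n = 5 each), and MRC1 12.23 ± 0.23 and 11.98 ± 0.43. MARCO read 5.97 and 5.30, and FABP4, at 3.73 and 3.94, lay below the median of all probe sets. Among 8 of 11 macrophage markers measured, 2 rose, CD163 and PTPRC, and 1 fell, PPARG (-0.64, adjusted p in limma 0.0124). PTPRC is carried by all leukocytes, and CD163 was lower in non-adherent cells of animal 1 (-0.36). Of all named genes, 6.72% rose and 9.78% fell. The summed linear signal of the 8 macrophage markers ranged from 15408 to 17774 on non-adherent and from 9416 to 18405 on adherent arrays. Of 5 of 6 dendritic cell markers measured, 4 rose: LAMP3 (3.33, the largest rise of all named genes), FLT3 (1.91), CCR7 (1.83) and XCR1 (0.86). CD1A did not pass (0.26). The summed linear signal of the 5 was 751 to 2097 on non-adherent and 310 to 446 on adherent arrays. LAMP3, CCR7 and XCR1, at means of 8.32, 8.25 and 8.26 (log2), weigh most in the non-adherent sums, which therefore do not stand for the list. Of 8 of 9 lung epithelial markers measured, 1, EPCAM, fell, and 7 did not pass. The summed signal of the 8 was 618 to 947 and 1082 to 2131. EPCAM, at 8.47 and 9.82 (log2), was the brightest of them and weighs most in this sum, which therefore does not stand for the list. FOXJ1 followed at 6.72 and 7.16, and SFTPC read 4.89 and 4.92, near the median of all probe sets of 5.02. Of the T cell, B cell and neutrophil markers measured (5, 4 and 5 genes), 0 passed in limma. An unadjusted p under 0.05 was found for 0, 1 and 0 of them, and for 31.5% of all named genes. Their summed signals were 263 to 361, 179 to 202 and 3728 to 5380 on non-adherent and 252 to 308, 158 to 238 and 2300 to 6886 on adherent arrays. The highest macrophage, B cell and neutrophil sums were those of the adherent array of animal 1, which stands apart in several synthesis genes below. On it CD163 read 11.28 against 8.38 to 9.24 on the other adherent arrays, SIGLEC1 9.92 against 7.45 to 8.71, and CSF3R, a neutrophil marker, 11.51 against 8.39 to 9.18. The part of these cells in the results below was not tested.

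Among the regulators, INSIG1, the endoplasmic reticulum protein that retains the SREBP escort and is itself an SREBP target, had the largest fall of the 34 genes. Its log2 values in animals 1 to 5 were 7.42, 7.53, 7.24, 6.94 and 7.27 in non-adherent cells and 9.49, 8.75, 8.55, 8.47 and 8.56 in adherent cells. Every non-adherent array lay below every adherent array. INSIG1 was 2.80-fold higher in adherent cells, a log2 difference of -1.48 ± 0.19 (SE, adjusted p = 0.000641), and the second INSIG1 probe set differed by -1.61 ± 0.16.

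SREBF1, which encodes SREBP-1, the isoform tied mainly to fatty acid synthesis, read 7.15, 6.69, 7.81, 7.54 and 7.47 in non-adherent and 8.52, 7.62, 8.49, 8.25 and 7.92 in adherent cells. The groups overlapped only through animal 3 of the non-adherent and animal 2 of the adherent arrays, and all 5 pigs were lower in non-adherent cells. SREBF1 fell by 0.83 ± 0.23 (adjusted p = 0.0304). Without non-adherent animal 1 or 2 or adherent animal 3 or 4 the adjusted p exceeded 0.05, at up to 0.072, as it did without both arrays of animal 1, 3, 4 or 5, at up to 0.0855. SREBF2, which encodes SREBP-2, the isoform of sterol synthesis, read 7.80, 7.78, 8.34, 8.21 and 7.60 against 8.70, 8.75, 8.74, 8.16 and 9.05. It was lower in non-adherent cells of 4 pigs and nearly equal in animal 4. SREBF2 fell by 0.73 ± 0.18 (adjusted p = 0.0196). The adjusted p was 0.0501 without non-adherent animal 1, and 0.0828 and 0.0962 without both arrays of animal 2 and of animal 5. Each gene had 4 probe sets, and all 8 differed in the same direction, by between -0.38 and -1.03.

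NCEH1, the enzyme that frees cholesterol from its esters in macrophages, went the other way. It read 7.11, 7.21, 7.39, 6.89 and 6.77 in non-adherent and 5.49, 6.48, 6.07, 6.24 and 5.56 in adherent cells. The groups did not overlap, and the difference was 1.10 ± 0.20 (2.15-fold, adjusted p = 0.00402). SOAT1, which makes those esters, did not pass, at 8.96 ± 0.14 against 8.89 ± 0.59 (SD, n = 5 each; adjusted p = 0.863). In SOAT1 the adherent array of animal 1 stood at 7.86, below the range of 8.98 to 9.32 of the other 4 adherent arrays.

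STARD4, a cytosolic sterol carrier, read 5.87, 5.62, 5.19, 4.32 and 5.62 in non-adherent and 7.40, 6.77, 5.68, 4.87 and 7.10 in adherent cells. Each pig was lower in non-adherent cells, but the pigs differed widely, and the fit without pairing gave -1.04 ± 0.47 (adjusted p = 0.156). With the animal as a block the same difference had an adjusted p of 0.0085. MYLIP, the LXR-induced ligase that marks low-density lipoprotein receptors for breakdown, did not pass (-0.15 ± 0.43, adjusted p = 0.849). Its adherent value was 8.87 in animal 1 and 6.17 to 6.90 in the others, against 6.70 to 7.02 over the non-adherent arrays.

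**Figure D2:**
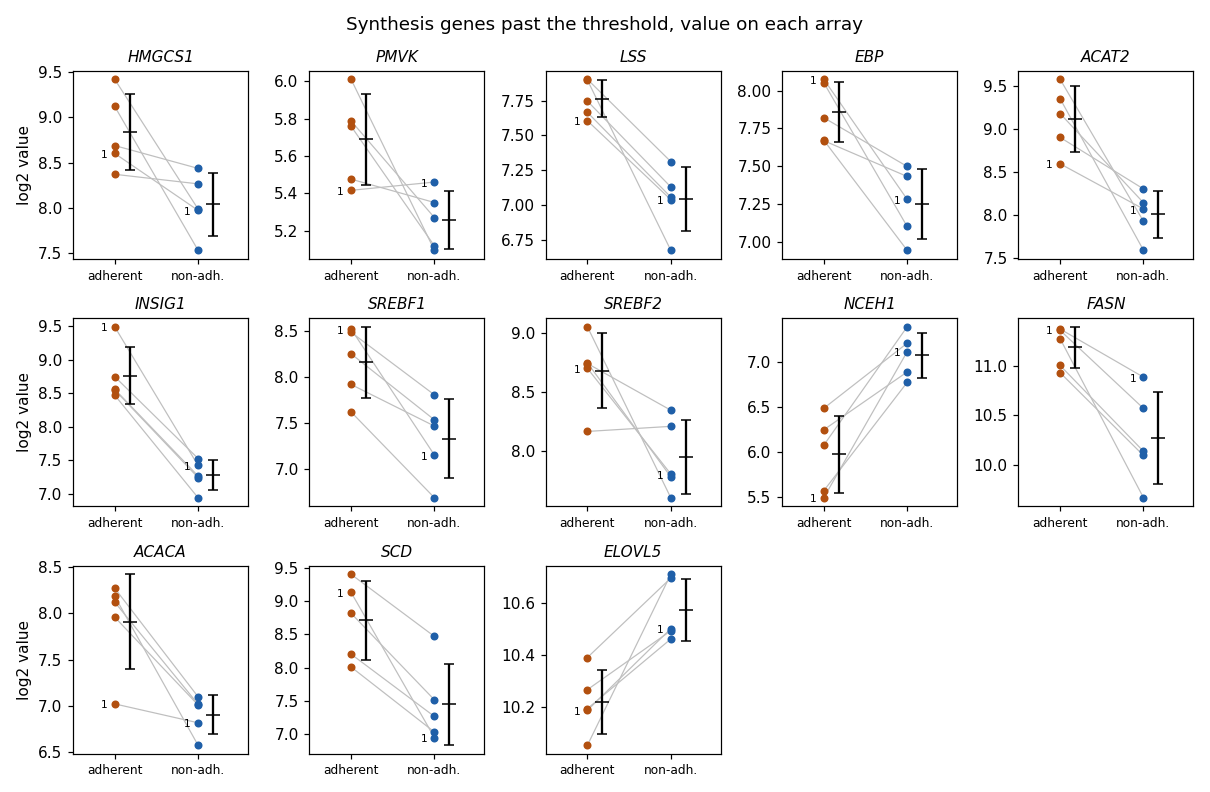
Log2 value (y axis, a scale for each panel) of the 13 genes past the threshold on each array, adherent left and non-adherent right. Grey lines join the arrays of a pig, bars give the mean and SD (n = 5), and the number 1 marks animal 1. INSIG1 and LSS show no overlap between groups, and in ACACA the adherent array of animal 1 (7.02) lies among the non-adherent values.

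In cholesterol synthesis, 5 of 15 enzymes fell, 0 rose and 10 did not pass, where 9.78% of all named genes fell and 6.72% rose. The median difference of the 15 was -0.57. Over all 15, 9 had an unadjusted p under 0.05, as did 31.5% of all named genes. The 5 were spread along the pathway, from the first thiolase and synthase steps to the closing of the sterol rings and a late isomerase. Without both arrays of animal 2, 2 enzymes fell, beside 7.28% of all named genes. With the animal as a block 3 enzymes fell, since HMGCS1 (adjusted p = 0.0528) and PMVK (0.0856) no longer passed. Over all 34 genes the block gave 10 lower and 2 higher, beside 10.4% and 7.85% of all named genes.

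ACAT2, the cytosolic thiolase that joins acetyl-CoA units, read 8.07, 7.59, 8.15, 8.31 and 7.93 in non-adherent and 8.60, 9.36, 9.18, 8.91 and 9.58 in adherent cells. The groups did not overlap, and the adherent level was 2.17-fold higher (-1.12 ± 0.19, adjusted p = 0.0029). HMGCS1, the HMG-CoA synthase of the next step, read 7.97, 7.53, 8.44, 8.26 and 7.99 against 8.60, 9.12, 8.69, 8.37 and 9.42. The groups overlapped through the non-adherent array of animal 3 and the adherent array of animal 4. HMGCS1 fell by 0.80 ± 0.22 (adjusted p = 0.0284), and this p exceeded 0.05 without non-adherent animal 1, 2 or 5 or adherent animal 2 or 5 (up to 0.0629) and without both arrays of animal 2, 3 or 5 (up to 0.114). A dim second probe set of HMGCS1, at 4.25 against 3.94, differed by 0.30 in the other direction (adjusted p over all probe sets 0.0513), and the mean of both gave an adjusted p of 0.17.

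Of the mevalonate enzymes, PMVK, the phosphomevalonate kinase, fell by 0.43 ± 0.13 (adjusted p = 0.0397). It read 5.46, 5.09, 5.12, 5.35 and 5.27 against 5.42, 6.01, 5.76, 5.48 and 5.79, close to the median of all probe sets, with animals 1 and 4 nearly level between groups. Its adjusted p lay above 0.05 without non-adherent animal 2, 3, 4 or 5 or adherent animal 2, 3 or 5 (up to 0.0898), and without both arrays of animal 2, 3, 4 or 5 (up to 0.163). MVD, the decarboxylase, read 6.60 to 6.86 in non-adherent and 6.87 to 7.43 in adherent cells, without overlap, and did not pass (-0.36 ± 0.12, adjusted p = 0.0667). With all arrays, MVD did pass with the animal as a random effect, with arrays centred on the median and with array weights. MVK, mevalonate kinase, differed by -0.24 ± 0.10 (adjusted p = 0.129).

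From squalene onward, LSS, which folds squalene epoxide into lanosterol, read 7.04, 6.68, 7.31, 7.13 and 7.06 in non-adherent and 7.61, 7.90, 7.90, 7.75 and 7.67 in adherent cells. The groups were fully apart, by -0.72 ± 0.12 (adjusted p = 0.00263). EBP, the sterol isomerase, read 7.28, 7.10, 7.50, 7.43 and 6.94 against 8.08, 8.05, 7.82, 7.67 and 7.67. It too did not overlap (-0.61 ± 0.13, adjusted p = 0.0103), and its 3 other probe sets differed by -0.18 to -0.50. Without both arrays of animal 2 its adjusted p was 0.0544.

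The squalene synthase FDFT1, the epoxidase SQLE and the lanosterol demethylase CYP51A1 had differences of -0.72 ± 0.27, -0.57 ± 0.34 and -0.69 ± 0.33 and did not pass. In each of them the adherent array of animal 1 was the lowest adherent value. FDFT1 stood at 8.09 in that array and at 8.54 to 9.64 in the other 4, SQLE at 9.29 and 10.14 to 11.22, and CYP51A1 at 7.65 and 8.73 to 9.39. FDPS, the farnesyl diphosphate synthase, showed the same array at 7.14 against 8.12 to 8.65, with a group difference of -0.05 ± 0.24. NSDHL, a dehydrogenase in the removal of the C4 methyl groups, had that array high instead, at 9.39 against 7.95 to 8.17 in the others and 7.19 to 7.74 in non-adherent cells. The NSDHL difference was -0.78 ± 0.25 (adjusted p = 0.0584) although its groups did not overlap. Its 2 other probe sets differed by -0.93 ± 0.27 and -1.33 ± 0.29 (adjusted p over all probe sets 0.0508 and 0.0147). NSDHL passed when its probe sets were averaged (-1.01, adjusted p = 0.0254), and also with the animal as a random effect and with the level filter. The C4 methyl oxidase SC4MOL (0.04 ± 0.18), the ketosterol reductase HSD17B7 (0.24 ± 0.24) and the last reductase DHCR7 (0.07 ± 0.12) did not pass, and DHCR7 lay below the median of all probe sets.

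The adherent array of animal 1 was the lowest adherent array for 8 of 15 cholesterol enzymes, as it was for 29.6% of all named genes, and the highest for 2, NSDHL and EBP (28.7% of all named genes). Without it, 10 of 15 cholesterol enzymes fell and 0 rose, with 16 of 34 synthesis genes lower and 2 higher, where 13.0% and 9.34% of all named genes fell and rose. The 5 cholesterol enzymes that passed here but not in the same fit with all arrays were MVD (-0.42), FDFT1 (-0.95), SQLE (-0.85), CYP51A1 (-0.99) and NSDHL (-0.51), with adjusted p between 0.00849 and 0.0379. All 5 except SQLE also passed with array weights. In FDFT1, SQLE and CYP51A1 that array held the lowest adherent value, so leaving it out widens their difference by construction. The counts without it are therefore no separate support for a fall. With both arrays of animal 1 left out and the animal as a block, 18 of 34 genes fell and 3 rose, beside 13.9% and 11.5% of all named genes.

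Among sterol exporters, the LXR-induced ABCG1 read 7.92 in that array and 5.18 to 6.62 in the other adherent arrays, against 7.85 to 8.22 in non-adherent cells. ABCG1 rose by 1.78 ± 0.41 with all arrays (adjusted p = 0.014) and by 2.18 without that array, but its adjusted p was 0.126 when its probe sets were averaged and up to 0.0712 without both arrays of animal 2, 3 or 5. ABCA1, another LXR-induced exporter, did not pass (-0.27 ± 0.25), with 10.44 in that array and 9.06 to 10.53 in the others.

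**Figure D3:**
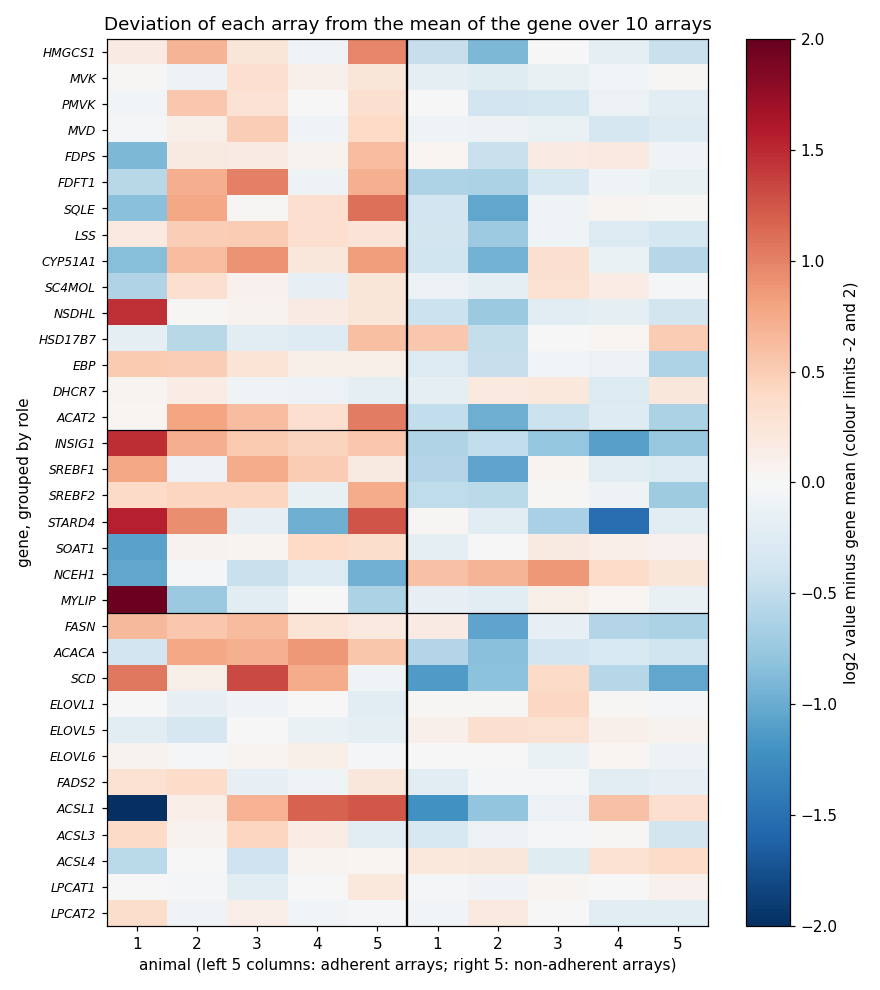
Log2 value minus the mean of the gene over 10 arrays (colour, limited to -2 and 2) for the 34 synthesis genes in rows and the arrays in columns, adherent left and non-adherent right, each ordered by animal. The adherent array of animal 1 is low for FDPS, FDFT1, SQLE, CYP51A1, SOAT1 and ACSL1 and high for NSDHL, INSIG1, STARD4 and MYLIP. The non-adherent array of animal 2 is low along most of the cholesterol enzymes.

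In fatty acid synthesis and remodelling, 3 of 12 enzymes fell, 1 rose and 8 did not pass, where 9.78% of all named genes fell and 6.72% rose. The median difference of the 12 was -0.19. The 3 that fell were the central steps of synthesis and the first desaturation. ACACA, acetyl-CoA carboxylase, which commits carbon to fatty acids, read 6.82, 6.57, 7.02, 7.10 and 7.01 in non-adherent and 7.02, 8.18, 8.12, 8.27 and 7.96 in adherent cells. Adherent animal 1 lay within the non-adherent range, and the other 4 adherent arrays lay above it. ACACA fell by 1.01 ± 0.22 (adjusted p = 0.0104) and by 1.23 without that array, and the adjusted p was 0.0566 without both arrays of animal 2 and 0.0565 without those of animal 3.

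FASN, fatty acid synthase, read 10.88, 9.67, 10.57, 10.14 and 10.09 against 11.37, 11.27, 11.36, 11.003 and 10.93. The highest non-adherent value lay just below the lowest adherent one, and FASN fell by 0.92 ± 0.21 (adjusted p = 0.0118). SCD, the desaturase that makes oleic acid, read 6.95, 7.27, 8.47, 7.52 and 7.03 against 9.13, 8.20, 9.40, 8.82 and 8.01. Every pig was lower in non-adherent cells, and non-adherent animal 3 overlapped adherent animals 2 and 5. The difference was -1.27 ± 0.33 (2.40-fold, adjusted p = 0.0246), with an adjusted p of up to 0.0621 without non-adherent animal 1, 2 or 5 or adherent animal 3 or 4, and of up to 0.088 without both arrays of animal 1, 2 or 4.

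ELOVL5, an elongase of polyunsaturated fatty acids, rose. It read 10.50, 10.71, 10.70, 10.49 and 10.46 in non-adherent and 10.19, 10.05, 10.39, 10.27 and 10.19 in adherent cells, without overlap, a difference of 0.36 ± 0.09 (adjusted p = 0.0227). Its adjusted p was 0.0522 and 0.0565 without non-adherent animal 2 and 3, and up to 0.0927 without both arrays of animal 2, 3, 4 or 5. It was also 0.0522 when the 2 ELOVL5 probe sets were averaged. ELOVL1, an elongase of long saturated chains, differed by 0.18 ± 0.10, and ACSL4, the acyl-CoA synthetase that prefers arachidonic acid, by 0.35 ± 0.15, and neither passed. ACSL3, another acyl-CoA synthetase, did not pass with its brightest probe set (-0.32 ± 0.14), whereas its second one differed by -0.97 ± 0.20 (adjusted p over all probe sets 0.0113). The desaturase FADS2 (4.57 and 4.83), the elongase ELOVL6 (3.32 and 3.39) and the lysophosphatidylcholine acyltransferase LPCAT1 (4.96 and 4.96) lay below the median of all probe sets in both groups, and LPCAT2, its relative, close to it (4.98 and 5.11). None of these 4 passed, and at such levels a difference may not have been measurable.

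The 34 genes had 64 probe sets in all, and 15 of the genes had several, 45 together. Fitted over all 47845 probe sets, 21 of the 64 fell and 2 rose, beside 6.04% and 4.73% of all probe sets. The genes past the threshold had 17 further probe sets, and 16 of them differed in the direction of the brightest one, the exception being HMGCS1. The matching share over all named genes is not given here. These probe sets were read on the same arrays for genes already called, so their direction is no separate support. The size varied within a gene. ACACA differed by -1.98 ± 0.24 in 1 of its 4 probe sets and by -0.12 ± 0.12 in the dimmest, and FASN by -1.44 ± 0.17 in its second.

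**Figure D4:**
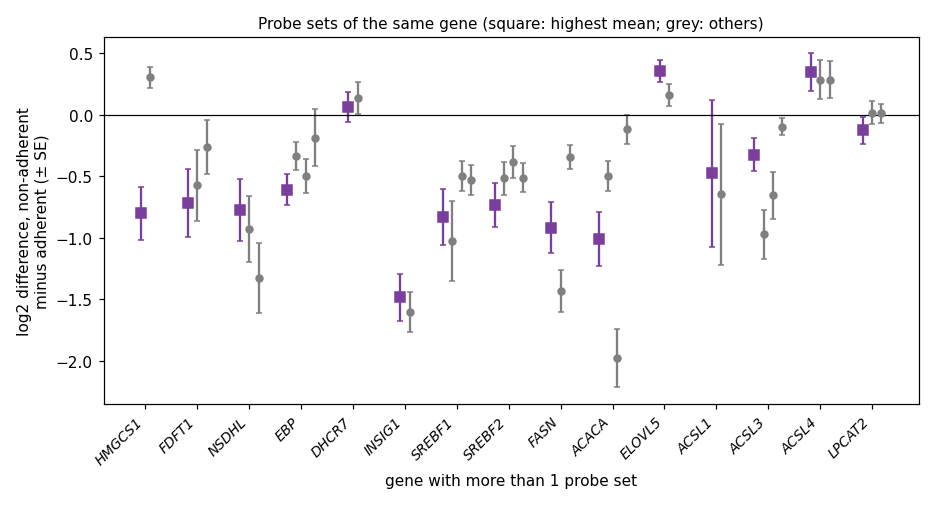
Log2 difference (non-adherent minus adherent, y axis, bars of 1 SE) of every probe set of the 15 synthesis genes that had more than 1. Purple squares are the brightest probe set of a gene and grey circles the others. All probe sets of INSIG1, SREBF1, SREBF2, FASN and ACACA lie below 0, while those of HMGCS1 fall on both sides.

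The size of the group difference varied between pigs. In cholesterol synthesis, the median difference was -0.92 in animal 2 and -0.65 in animal 5, with 13 and 14 of 15 enzymes lower in non-adherent cells. It was -0.32 in animal 3 with 12 lower, -0.17 in animal 4 with 11 lower and -0.06 in animal 1 with 9 lower. Of all named genes, 49.9% were lower in non-adherent cells in animal 1, 47.3% in animal 2, 51.2% in animal 3, 49.4% in animal 4 and 51.6% in animal 5. In animal 2 the non-adherent array was the lowest of its group for 12 of 15 enzymes and the highest for 0, whereas it was lowest for 25.3% and highest for 24.1% of all named genes.

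Differences between pigs that ran through both groups were tested with the animal terms of a fit of group and animal. With all arrays, 0 of 34 synthesis genes passed in limma (0.204% of all named genes), and 5 had an unadjusted p under 0.05 (9.88% of all named genes). Without both arrays of animal 1, those same 5 genes passed, where 2.44% of all named genes did: ACSL1 (adjusted p = 0.00931), SCD (0.00631), STARD4 (0.0171), HSD17B7 (0.0274) and SREBF1 (0.0385). Without the adherent array of animal 1 alone 4 passed, all but SREBF1 (2.52% of all named genes), and with array weights 3 did, ACSL1, SCD and STARD4 (1.07%). Without the non-adherent array of animal 1, when its adherent array alone stood for that pig, 12 passed (14.5%).

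ACSL1, an acyl-CoA synthetase of long-chain fatty acids, read 8.61, 9.04, 9.71, 10.41 and 10.16 in non-adherent and 7.76, 9.96, 10.52, 11.01 and 11.07 in adherent cells. Animals 1 and 2 were the low pigs and animals 4 and 5 the high pigs in both groups. Its group difference did not pass (-0.48 ± 0.60, adjusted p = 0.628), and animal 1 was the only pig with the higher value in non-adherent cells. The difference was -1.05 without the adherent array of animal 1 (adjusted p = 0.0601), and -0.81 in the blocked fit without both arrays of animal 1 (adjusted p = 0.000721). With all arrays the block gave an adjusted p of 0.241. In SCD, animals 2 to 5 kept the same order in both groups, with animal 3 highest and animal 5 lowest. In STARD4, animal 4 was lowest in both groups. HSD17B7 was highest in animal 5 among pigs 2 to 5, at 7.14 and 7.24, and lowest in animal 2, at 6.16 and 6.08.

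Further genes of the same pathways gave smaller shares. Of 26 other sterol genes, 17 were measured, and 3 fell and 1 rose, where 9.78% of all named genes fell and 6.72% rose. The median difference of the 17 was -0.20, with 12 differences below 0 and 5 above. NPC1, which moves cholesterol out of lysosomes, fell by 0.69 ± 0.08 (adjusted p = 0.000313) and NR1H2, the LXR-beta receptor, by 0.93 ± 0.09 (adjusted p = 0.000132). MBTPS1, the site-1 protease that cleaves SREBPs, fell by 0.64 ± 0.15 (adjusted p = 0.0126, and up to 0.0613 without both arrays of animal 2 or 5). In NPC1, NR1H2 and MBTPS1 the groups did not overlap.

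Of 33 other fatty acid genes, 23 were measured, with a median difference of 0.04, 10 differences below 0 and 13 above. Of the 23, 3 fell and 0 rose, beside 9.78% and 6.72% of all named genes. MID1IP1, which promotes the polymerisation of acetyl-CoA carboxylase, had the largest difference of the 3. It read 6.38, 6.49, 6.50, 6.49 and 6.55 in non-adherent and 9.27, 8.004, 7.97, 8.28 and 7.58 in adherent cells, without overlap (-1.74 ± 0.25, adjusted p = 0.00119), and differed by -0.81 when its probe sets were averaged. MCAT, a mitochondrial malonyl transferase, fell by 0.53 ± 0.09 (adjusted p = 0.00297). ACLY, which makes cytosolic acetyl-CoA from citrate, fell by 0.49 ± 0.15 (adjusted p = 0.0422), and its adjusted p lay above 0.05 on leaving out 1 of 8 arrays, all but non-adherent animal 4 and adherent animal 1, at up to 0.0973. It was up to 0.155 without both arrays of animal 2, 3, 4 or 5, 0.0503 with centred arrays and 0.0886 when its probe sets were averaged.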

How the data were processed

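Log2 probe set values of 10 arrays were used as deposited. Per the submitters' processing notes, RMA and Partek were used, with no version or order, and no source used here says whether both array series were normalized as one. Of 47845 probe sets, 26426 had 1 gene symbol, none had several and 21419 were unnamed here, and the annotation can be old. Non-adherent minus adherent was tested two-sided with limma 3.58.1 (lmFit, eBayes; R 4.3.3), with Benjamini-Hochberg adjustment over 13755 genes and a threshold of 0.05. The main fit held the group alone and did not pair the arrays of a pig. No filter was applied. The fit was tested on simulated data. The number of arrays limits the precision, and no pair of arrays held identical values.

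Groups and animal numbers come from the labels. Residuals of same-numbered arrays correlated at 0.116 to 0.398, and the pigs are the same, so the numbers pair the arrays. Alternatives were the animal as a block or random effect, left-out arrays and animals, centring, quantile normalization, a level filter, probe set means, trended variance and array weights. After the data were seen, the background covariate, single probe sets and the block without animal 1 were added.

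Members and lists were chosen with earlier results of these data known. Named genes are all members, other pathway genes past the threshold, and ACLY, ABCA1 and ABCG1, with 3 further genes not analysed here. A planned promoter search was not run. Figures were drawn with matplotlib 3.10.9.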

Additional observations from a re-analysis of the deposited data

Results flagged for a closer look

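In each group of 5 arrays, the highest or lowest value was compared with its nearest neighbour as a share of the range of the group, where a share above 0.71 stands apart. Over 68 such groups of values, 7 stood apart, and chance alone would give about 3.4 (1 in 20). Of the 7, 5 came from the adherent array of animal 1.

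On that array NSDHL (9.39 against 7.95 to 8.17, share 0.85), INSIG1 (9.49 against 8.47 to 8.75, share 0.729) and MYLIP (8.87 against 6.17 to 6.90, share 0.728) were high. SOAT1 (7.86 against 8.98 to 9.32, share 0.77) and ACACA (7.02 against 7.96 to 8.27, share 0.75) were low on it. On the non-adherent array of animal 3, ELOVL1 was high (8.95 against 8.49 to 8.56, share 0.835) and ACSL4 was low (11.09 against 11.53 to 11.68, share 0.744).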

How the results depend on the processing

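Of the 34 synthesis genes, 13 passed with all arrays, and 6 to 18 when an array or an animal was left out, with 8 without non-adherent animal 2 and 6, 8 and 8 without both arrays of animals 2, 3 and 5. The ranges were 2 to 10 for cholesterol enzymes, 2 to 4 for regulators, 1 to 5 for fatty acid enzymes, 4 to 9 for other pathway genes (7 with all arrays), 1119 to 3067 for all named genes (2270) and 0 to 12 for genes that differed between pigs. Cholesterol enzymes numbered 3 without non-adherent or adherent animal 2 or 5, or both arrays of animal 3 or 5, and 9 without both of animal 1. Regulators numbered 2 without non-adherent animal 1 or both arrays of animal 5, and fatty acid enzymes 2 without non-adherent animal 2 or both arrays of animal 3 or 4, and 1 without both of animal 2. Other pathway genes numbered 4 without both arrays of animal 2 or 5, and all named genes 1119, 1445 and 1251 without those of animals 3, 4 and 5. The 12 arose without the non-adherent array of animal 1, when its adherent array alone stood for that pig, and 14.5% of all named genes passed then. The animal as a block (replicate block) gave 12 of 34 genes, 3 cholesterol enzymes and an adjusted p of 0.0085 for STARD4, and changed no call of a named gene beyond HMGCS1, PMVK and STARD4. The block without animal 1 gave 21 of 34 genes, 10 cholesterol enzymes and 3495 named genes. Array weights gave 9 cholesterol enzymes, for which the matching share over all named genes is not given here. They also gave 3 genes that differed between pigs, beside 1.07% of all named genes. A log2 difference of at least 1 left 5 genes (1 cholesterol enzyme, 2 regulators, 2 fatty acid enzymes), 2 other pathway genes and 327 named genes. The background covariate left 0 genes in every group of synthesis genes and 4 named genes. The cause of these changes was not tested. By construction, a size threshold lowers a count, and leaving out the lowest adherent value of a gene widens its fall.

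Of the genes whose sign turned, SREBF1 alone had passed with all arrays. When arrays or animals were left out, FDPS ranged from -0.30 to 0.11, SC4MOL from -0.10 to 0.19, DHCR7 from -0.020 to 0.15, SOAT1 from -0.18 to 0.19, MYLIP from -0.35 to 0.35 and LPCAT1 from -0.059 to 0.058. LPCAT1 was -0.022 with centred arrays and -0.031 after quantile normalization, which put FDPS at 0.015, and ABCA1 was 0.050 with its probe sets averaged. Array weights gave SC4MOL -0.036, SOAT1 -0.078 and MYLIP 0.23. The block without animal 1 gave SC4MOL -0.069, SOAT1 -0.12 and MYLIP 0.35, the last at an adjusted p of 0.0497. With the background covariate SC4MOL was -0.53, NSDHL 0.65, SREBF1 0.23, STARD4 1.02, SOAT1 -1.16, MYLIP 2.14, ACSL4 -0.56 and LPCAT2 0.36, none past the threshold.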
